A study of Mus musculus with 6 samples.

Results

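The genes described here belong to the ATF4 arm of the integrated stress response, from the eIF2 kinases and ATF4 itself to the amino acid synthesis enzymes, amino acid transporters and aminoacyl-tRNA synthetases that ATF4 is known to induce. The members were taken from a list of named genes, drawn up with earlier results of these data known: 37 genes were listed, and 28 of them had a row in the deposited table of 13734 genes. All 28 passed the filter on low values, which kept 10054 genes. Of the listed genes, Eif2ak4, Eif4ebp1, Psph, Slc38a2, Aars, Eprs, Gars, Sars and Yars are not analysed here.

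Messenger RNA came from a single immortalized line of mouse subcutaneous white preadipocytes that is Dicer1 flox/flox and carries Cre-ERT2, a Cre recombinase switched on by tamoxifen. Both groups have this genotype, both were differentiated with insulin, rosiglitazone, T3, IBMX, dexamethasone and indomethacin, and both were stimulated with the beta-adrenergic agonist isoproterenol (10 µM for 6 h). The DICERKO group (3 libraries) had first received 10 µM 4-hydroxytamoxifen (4-OHT) for 48 h from day 6 of differentiation, and the control group (3 libraries) had received ethanol. Dicer1 encodes the RNase that makes mature microRNAs. There was no unstimulated group and no group given 4-OHT without the deletion, so effects of the drug and of the deletion cannot be told apart, and a response to isoproterenol itself was not measured. The labels call the libraries of a group biological replicates but do not say whether their cultures were differentiated separately, so p-values measure only the spread between these libraries.

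When eIF2 is phosphorylated by one of its kinases, bulk translation slows while the Atf4 message is translated better, so that the amount of Atf4 mRNA is only part of the control of the protein. ATF4 pairs with C/EBP-family partners such as CEBPG on C/EBP-ATF response elements, and raises genes for amino acid synthesis and uptake and for charging tRNAs. Other targets close the loop: PPP1R15A brings a phosphatase to eIF2, TRIB3 restrains ATF4, and DDIT3 (CHOP) modifies the programme. In fat cells, as elsewhere, the pathway answers amino acid shortage and stress of the endoplasmic reticulum.

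The response element is shown first because it is the sequence that ATF4 is known to bind. RefSeq promoter windows (GRCm38.p6, 250 bases before to 50 after a start site) were available for 23 of the 28 members, in 26 windows. The element's core, TGATGNAA on either strand, occurred in windows of 7 of these 23 members (30.4%), against 3.97% of all 32851 windows and 2.70% of the 7932 tested genes with a window. The list was drawn up around ATF4, so this share describes the list, and a match is not a measured binding site. In the 30-base windows below, given 5′ to 3′ on the gene's strand, capitals mark the 8-base match. Positions of its first base are counted from the start site, with the first transcribed base as 1.
Asns, chr6:7693214-7693243 (minus strand), match at -23: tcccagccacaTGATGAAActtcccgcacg
Pycr1, chr11:120643833-120643862 (minus strand), match at -103: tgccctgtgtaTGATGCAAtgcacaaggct
Chac1, chr2:119351038-119351067 (plus strand), match at -193: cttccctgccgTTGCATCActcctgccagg
Nupr1, chr7:126625562-126625591 (minus strand), match at -110: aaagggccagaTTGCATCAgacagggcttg
Tars, chr15:11399655-11399684 (minus strand), match at -15: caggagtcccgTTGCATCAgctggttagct
Iars, chr13:49682126-49682155 (plus strand), match at 8: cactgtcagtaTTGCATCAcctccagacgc
Trib3, chr2:152344028-152344057 (minus strand), match at 15: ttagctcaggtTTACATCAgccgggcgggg

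The Asns, Pycr1 and Chac1 promoters are given over the 250 bases before the start site, because these genes stand for asparagine synthesis, proline synthesis and glutathione breakdown in the response. Capitals again mark the element.
Asns, chr6:7693210-7693459 (minus strand): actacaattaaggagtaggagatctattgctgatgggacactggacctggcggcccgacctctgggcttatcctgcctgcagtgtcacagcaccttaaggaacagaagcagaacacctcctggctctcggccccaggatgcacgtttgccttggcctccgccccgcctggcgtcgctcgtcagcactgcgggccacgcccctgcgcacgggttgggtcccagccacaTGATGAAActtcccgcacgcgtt
Pycr1, chr11:120643749-120643998 (minus strand): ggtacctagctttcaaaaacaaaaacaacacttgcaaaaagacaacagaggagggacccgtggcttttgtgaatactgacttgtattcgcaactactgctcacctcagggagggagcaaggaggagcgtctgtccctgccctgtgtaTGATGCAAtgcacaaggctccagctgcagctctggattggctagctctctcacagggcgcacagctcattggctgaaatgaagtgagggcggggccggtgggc
Chac1, chr2:119350992-119351241 (plus strand): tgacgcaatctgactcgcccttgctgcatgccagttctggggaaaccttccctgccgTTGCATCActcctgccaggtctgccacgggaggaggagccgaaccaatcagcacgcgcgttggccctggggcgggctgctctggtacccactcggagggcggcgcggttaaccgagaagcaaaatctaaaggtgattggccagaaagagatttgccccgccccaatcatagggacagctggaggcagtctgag

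Since all cultures were stimulated through cyclic AMP, the full cAMP response element TGACGTCA, a palindrome and so the same on both strands, was searched too, and no match overlapped one of the first motif. It occurred in 1 of the 23 members (4.35%), Ppp1r15a, against 1.79% of all windows and 3.49% of tested genes with a window. The Ppp1r15a match begins 12 bases before the start site.
Ppp1r15a, chr7:45526262-45526291 (minus strand): cgcctctccggTGACGTCAgcacagcgccg

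Depth was sufficient for each member, with 258 reads or more in every library (the lowest for Pycr1). Reads on the table's genes ran from 13569034 in DICERKO replicate 1 to 30268077 in DICERKO replicate 3, with 17219155 to 17680469 in controls. Dicer1, the check of the labels, read 6.14, 6.09 and 6.14 log2 CPM (the log2 of reads scaled to library size) in controls and 5.43, 5.47 and 5.49 in DICERKO (difference -0.66, SE 0.10, limma adjusted p = 0.0150). That call was lost without any single library other than DICERKO replicate 3, with an adjusted p of up to 0.147. The Dicer1 message stood at 63.3% of the control level in DICERKO, and how complete the deletion was is not measured here. DICERKO replicate 3 stood apart from the other libraries: each of 10 adipocyte markers was lowest there. Their summed level was 5453 to 6687 CPM in controls, 10177 and 10204 CPM in DICERKO replicates 1 and 2, and 2941 CPM in replicate 3. The 10 preadipocyte and fibroblast markers summed to 9280 to 10603 CPM in controls. They summed to 6125 and 6833 CPM in DICERKO replicates 1 and 2, and to 5222 CPM in replicate 3. Of these 10 markers too, 8 were lower in replicate 3 than in every other library. Most of their summed level was from Col1a1, Col3a1, Col1a2 and Dcn, which differed by -0.70, -1.44, -0.36 and -0.81. Of the 9 markers of this list that were tested, Col3a1 alone passed with all libraries (limma adjusted p = 0.00856). Thy1 differed by -0.46, but Pdgfra (-0.06), Pdgfrb (0.02), Ly6a (-0.05) and Cd34 (-0.04) differed little, and Dpp4 was not tested. The 5 smooth muscle and pericyte markers summed to 430 to 567 CPM in controls and 350 to 444 CPM in DICERKO. Of macrophage and leukocyte markers 5 of 8 had rows, summing to 33.6 to 38.6 CPM in controls and 38.5 to 39.7 CPM in DICERKO, and Ptprc, Adgre1 and Itgam are not analysed here. Of endothelial markers 4 of 5 summed to 4.94 to 6.09 CPM in controls and 6.31 to 8.16 CPM in DICERKO. Of all these markers 1, of the endothelial list, was at 0 reads in any library. In bulk RNA fewer cells of a type and less RNA per cell cannot be told apart, and the part that cell composition has in the member differences was not tested. Counts of genes past the threshold are also given without DICERKO replicate 3. That fit does not bring the groups closer in adipocyte markers. In it 8 of the 10 adipocyte markers were higher in DICERKO by limma, with a median difference of 0.61. With all libraries 0 of the 10 passed, and the median difference was 0.17.

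In stimulated adipocytes most ATF4 response genes had slightly lower means in DICERKO than in controls. By role, the median difference was -0.32 for amino acid transporters, -0.28 for amino acid synthesis, -0.20 for kinases and feedback genes, -0.10 for tRNA synthetases and -0.08 for transcription factors. Of 28 members 25 had a lower mean in DICERKO and 3 a higher mean (Ddit3, Cebpg and Eif2ak3), where 47.2% of all genes tested had a lower mean. No difference passed limma's adjusted p of 0.05 over all genes. The median difference over the members was -0.20 on the log2 scale, against 0.02 over all genes tested. Differences ran from -0.56 (Pycr1 and Ddit4) to 0.24 (Cebpg), that is from 67.7% to 118% of the control level.

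With all 6 libraries 0 members were lower and 0 higher by limma with Benjamini-Hochberg adjustment, where 0.288% and 0.149% of all genes tested were. limma-voom on the recovered reads also gave 0. At an unadjusted limma p under 0.05 there were 10 members, all of them lower, against 7.35% of all genes tested that were lower at this p. Without DICERKO replicate 3, 10 members fell and 0 rose, where 7.22% of all genes tested fell and 12.5% rose. That fit leaves out the spread that replicate 3 adds, and its p-values rest on 2 DICERKO libraries. Every DICERKO library lay below every control for 12 members and above every control for 1, Ddit3, against 9.81% and 10.4% of all genes tested. DICERKO replicates 1 and 2 alone lay below every control for 19 members, against 23.5% of all genes tested. Without control replicate 3 the groups were also separated downward for 19 members, against 18.5% of all genes tested.

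**Figure D1:**
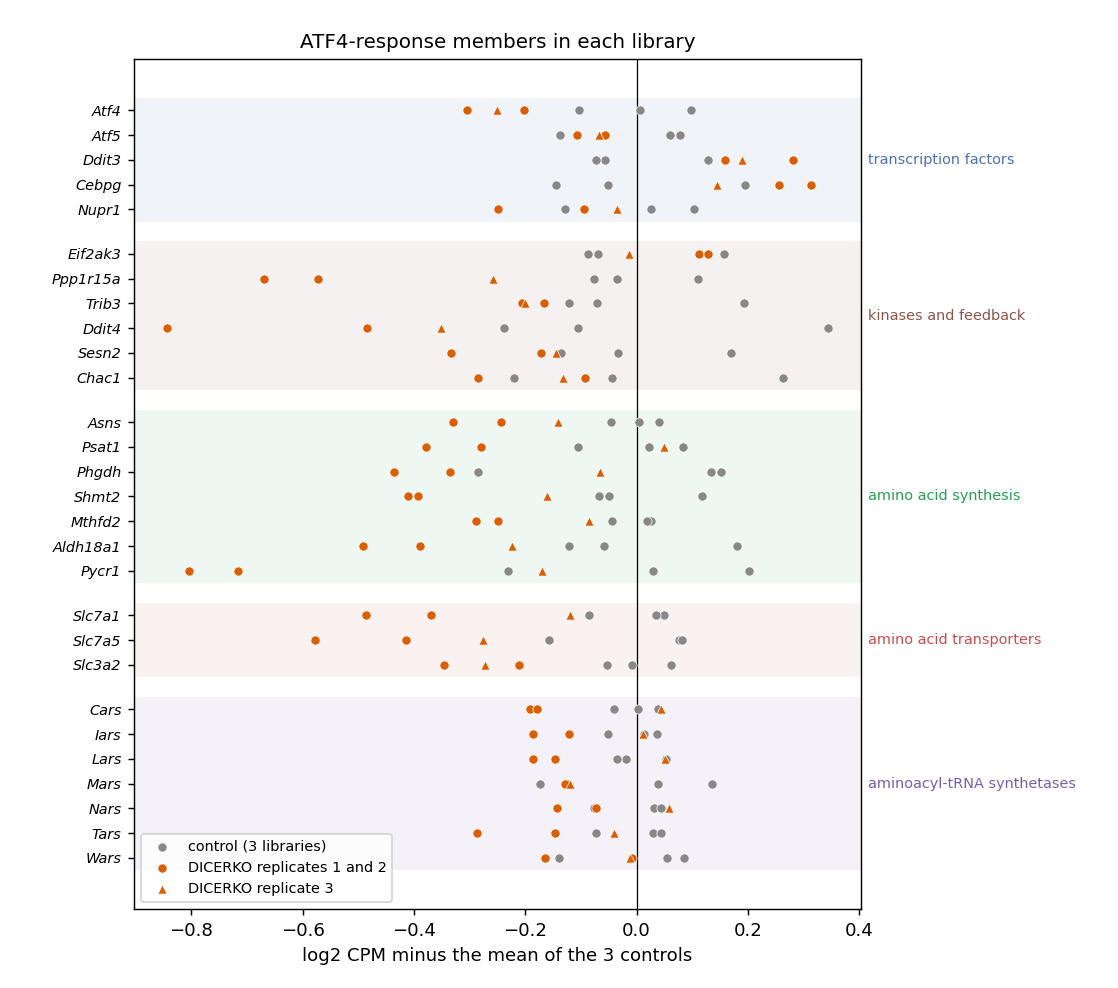
Each row is a member and each point a library, plotted as log2 CPM minus the mean of the 3 controls; grey points are controls, orange circles DICERKO replicates 1 and 2, and orange triangles DICERKO replicate 3. The points of replicates 1 and 2 lie left of all controls for 19 members, and replicate 3 is the highest DICERKO library for 19 members.

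The transcription factors did not move together. Atf4 (chr15:80255184-80257545) read 8.89, 8.80 and 8.69 log2 CPM in controls and 8.59, 8.49 and 8.54 in DICERKO. All 3 DICERKO libraries were below the controls, replicate 3 included, and Atf4 stood at 83.9% of the control level (difference -0.25, SE 0.10, limma adjusted p = 0.289). The difference was again -0.25 without DICERKO replicate 3 (adjusted p = 0.0846). Ddit3 (chr10:127290793-127296291), the gene of the stress factor CHOP and itself an ATF4 target, went the other way, at 6.43, 6.62 and 6.42 log2 CPM in controls and 6.65, 6.77 and 6.68 in DICERKO. Its groups did not overlap, and the difference was 0.21 (SE 0.10, limma adjusted p = 0.341). The Ddit3 and Mars genes share 71 bases on the genome, and counting is not stated to use strand.

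Within each library, Ddit3 relative to Atf4 was -2.45, -2.18 and -2.27 (log2 CPM difference) in controls and -1.94, -1.71 and -1.86 in DICERKO, so the ratio of the messages was higher in all 3 DICERKO libraries. This pair was picked after its values were seen, and the shift of 0.46 was given no test. Cebpg, the dimer partner of ATF4, differed by 0.24 (adjusted p = 0.339). Its control replicate 3, at 6.60 log2 CPM, was above DICERKO replicate 3, at 6.55. Atf5, a second stress factor translated like ATF4, differed by -0.08 (adjusted p = 0.716), and Nupr1, a small stress-induced chromatin protein, by -0.13 (adjusted p = 0.545). Without DICERKO replicate 3 none of the 5 transcription factors passed the threshold.

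Among the kinases and feedback genes the smallest p was that of Ppp1r15a (chr7:45522917-45526268), which encodes GADD34, the subunit that directs a phosphatase to eIF2. It read 6.34, 6.53 and 6.38 log2 CPM in controls and 5.75, 5.84 and 6.16 in DICERKO. The groups did not overlap, and replicate 3 was nearest to the controls. That p was also the smallest of the 28 members, with a difference of -0.50 (SE 0.13, limma adjusted p = 0.113). Without DICERKO replicate 3 it fell by 0.62 (adjusted p = 0.000615). Ppp1r15a shares 730 bases of the genome with Tulp2, so reads of either could have been counted for the other. Other overlaps include Atf5 with Nup62 (571 bases), Aldh18a1 with the pseudogene Gm15801 (2837 bases), Nupr1 with the noncoding Gm39087 (2225 bases), Shmt2 with Ndufa4l2 (32 bases) and Wars with Wdr25 (24 bases).

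Ddit4 (chr10:59949675-59951770), which encodes REDD1, an inhibitor of mTORC1, read 8.23, 8.81 and 8.36 log2 CPM in controls and 7.63, 7.98 and 8.12 in DICERKO. Its libraries were the most scattered of the feedback genes in both groups, with SDs of 0.31 and 0.25 (n = 3 each), yet they did not overlap. The difference was -0.56 (SE 0.17, limma adjusted p = 0.178), and without DICERKO replicate 3 Ddit4 fell by 0.66 (adjusted p = 0.00521). Sesn2, a leucine sensor upstream of mTORC1, differed by -0.22 (adjusted p = 0.368), and Trib3, the pseudokinase that restrains ATF4, by -0.19 (adjusted p = 0.399). Both had all DICERKO libraries below all controls, but by margins smaller than the spread of the controls. Chac1, the glutathione-degrading enzyme gene, differed by -0.17 with overlapping groups (adjusted p = 0.532). Eif2ak3, which encodes the eIF2 kinase PERK of the endoplasmic reticulum, differed by 0.08, with a 95% interval from -0.18 to 0.33.

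All 7 tested amino acid synthesis genes had lower means in DICERKO, where 47.2% of all genes tested did. Without DICERKO replicate 3, 6 of the 7 fell, against 7.22% of all genes tested. Pycr1 (chr11:120638998-120643748), the gene of the last enzyme of proline synthesis, read 4.62, 4.80 and 4.36 log2 CPM in controls and 3.88, 3.79 and 4.42 in DICERKO. DICERKO replicates 1 and 2 were well below the controls, while replicate 3 lay above control replicate 3. Its difference was -0.56 (SE 0.18, limma adjusted p = 0.204), and without replicate 3 it fell by 0.76 (adjusted p = 0.00119). Aldh18a1 (chr19:40550257-40588463), whose product starts proline synthesis from glutamate, read 6.70, 6.93 and 6.63 log2 CPM in controls and 6.26, 6.36 and 6.53 in DICERKO. Here all 3 DICERKO libraries were below the controls. The difference was -0.37 (SE 0.12, limma adjusted p = 0.204), and without DICERKO replicate 3 it fell by 0.44 (adjusted p = 0.00989).

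In the serine synthesis genes Phgdh and Psat1, DICERKO replicates 1 and 2 were the lowest of the 6 libraries. Phgdh (chr3:98313171-98339969), the gene of its first enzyme, read 7.31, 7.33 and 6.90 log2 CPM in controls and 6.85, 6.75 and 7.12 in DICERKO. Control replicate 3 was low and DICERKO replicate 3 high, so the groups overlapped, and the difference was -0.28 (SE 0.14, limma adjusted p = 0.361). Psat1 (chr19:15905123-15925059), the aminotransferase gene of the next step, read 8.63, 8.57 and 8.44 log2 CPM in controls and 8.26, 8.17 and 8.59 in DICERKO. Again replicate 3 stood among the controls, and the difference was -0.20 (SE 0.13, limma adjusted p = 0.433). Without DICERKO replicate 3 Phgdh fell by 0.39 (adjusted p = 0.0381) and Psat1 by 0.33 (adjusted p = 0.0289).

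Shmt2 (chr10:127517123-127522444), whose mitochondrial product turns serine into glycine and loads folate, read 8.02, 8.18 and 8.001 log2 CPM in controls and 7.68, 7.66 and 7.91 in DICERKO. The groups did not overlap. The difference was -0.32 (SE 0.11, limma adjusted p = 0.229), and without DICERKO replicate 3 Shmt2 fell by 0.40 (adjusted p = 0.00911). Mthfd2, the mitochondrial folate enzyme gene that acts after Shmt2, differed by -0.21 (adjusted p = 0.339), also with separated groups, and by -0.27 without replicate 3 (adjusted p = 0.0557). Asns (chr6:7675165-7693209), which encodes asparagine synthetase and carries the element shown above just before its start, read 7.32, 7.29 and 7.24 log2 CPM in controls. In DICERKO it read 7.04, 6.95 and 7.14, below all controls. Its difference was -0.24 (SE 0.10, limma adjusted p = 0.289), and without DICERKO replicate 3 it fell by 0.29 (adjusted p = 0.0424).

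The 3 tested amino acid transporter genes all had groups separated downward, as did 9.81% of all genes tested. Without DICERKO replicate 3, 2 of the 3 fell, against 7.22% of all genes tested. Slc7a5 (chr8:121881146-121907686), the gene of the leucine transporter LAT1, read 7.55, 7.56 and 7.32 log2 CPM in controls and 7.06, 6.90 and 7.20 in DICERKO. DICERKO replicate 3 was closest to the controls but below each of them. The difference was -0.42 (SE 0.12, limma adjusted p = 0.147), which put DICERKO at 74.6% of controls. Without DICERKO replicate 3 Slc7a5 fell by 0.50 (adjusted p = 0.00401). Slc3a2 (chr19:8706882-8723369), which encodes the heavy chain that carries LAT1 to the cell surface, read 8.43, 8.36 and 8.32 log2 CPM in controls and 8.16, 8.03 and 8.10 in DICERKO. In Slc3a2 replicate 3 lay between the other DICERKO libraries. The difference was -0.28 (SE 0.10, limma adjusted p = 0.244), and -0.28 without DICERKO replicate 3 (adjusted p = 0.0530). Slc7a1 (chr5:148327410-148399904), the cationic amino acid transporter gene, read 7.50, 7.48 and 7.36 log2 CPM in controls and 7.08, 6.96 and 7.33 in DICERKO. Replicate 3 nearly met the lowest control, the difference was -0.32 (SE 0.12, limma adjusted p = 0.244), and without replicate 3 Slc7a1 fell by 0.43 (adjusted p = 0.00597).

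The 7 tested aminoacyl-tRNA synthetase genes, whose products charge tRNAs with their amino acids, had the smallest differences among the roles other than the transcription factors. All had means below the controls, by -0.05 (Nars) to -0.16 (Tars), with Wars at -0.06, Lars at -0.09, Iars at -0.10, Cars at -0.11 and Mars at -0.12. A lower mean was found for 47.2% of all genes tested. None of the 7 passed the limma threshold with all libraries or without DICERKO replicate 3. Separated groups occurred in 0 of the 7, against 9.81% of all genes tested downward and 10.4% upward. The intervals limit how large a change could be: for Nars the 95% interval ran from -0.29 to 0.18, and for Tars from -0.39 to 0.07. In 6 of the 7 genes DICERKO replicate 3 was the highest DICERKO library, and for Cars, at 6.24 log2 CPM, and Nars, at 8.73 log2 CPM, it was above every control. Set against the mean of the controls, they had a median of -0.12, -0.18 and 0.01 in DICERKO replicates 1, 2 and 3.

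**Figure D2:**
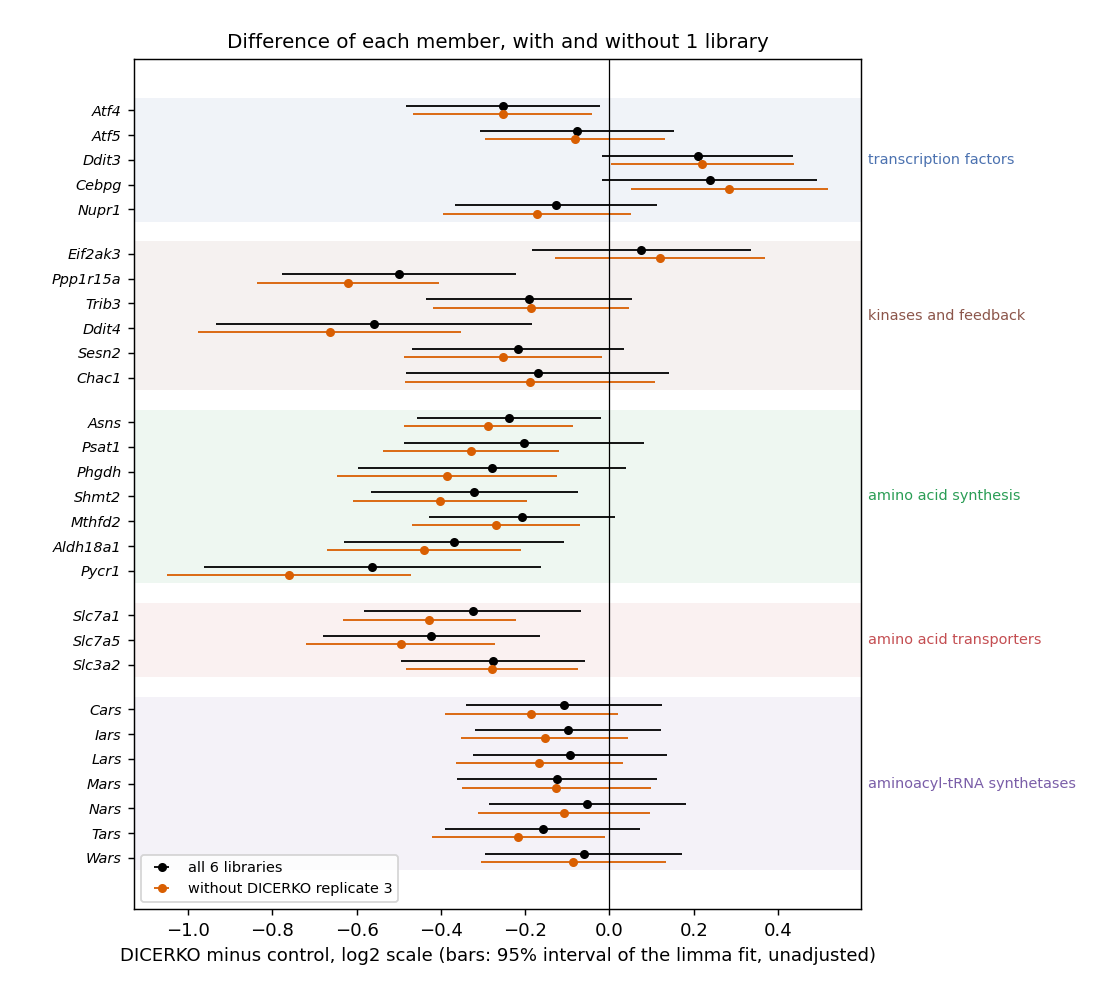
Difference of each member (DICERKO minus control, log2 scale) with its unadjusted 95% interval from limma, for all 6 libraries in black and without DICERKO replicate 3 in orange. The intervals of the 3 transporters and of Atf4, Ppp1r15a, Ddit4, Asns, Shmt2, Aldh18a1 and Pycr1 lie below 0 in both fits. Those of 6 of the 7 synthetases cross 0 in both.

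Across the members DICERKO replicate 3 was the DICERKO library nearest to the control mean for 21 of 28 (75.0%), against 48.8% of all genes tested. It was the highest DICERKO library for 19 of 28 (67.9%), against 41.4% of all genes tested. Set against the mean of the controls, the members had a median of -0.23, -0.24 and -0.10 in DICERKO replicates 1, 2 and 3. For the amino acid synthesis genes these medians were -0.34, -0.39 and -0.14, and for the transporters -0.37, -0.49 and -0.27. The adipocyte markers also set replicate 3 apart, but the other way, with medians of 0.60, 0.60 and -1.18. For these markers replicate 3 was the lowest DICERKO library and the farthest from the controls by median. Their part in the member values was not tested.

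By median, members with the element in their promoter window did not stand lower than those without a match. The 7 genes with the element all had lower means in DICERKO, with a median difference of -0.17, and the other 16 with a window had a median of -0.23. Elements outside the window or differing from the core would not be found, and the comparison was not tested. Pycr1 and Asns, with the element, had differences of -0.56 and -0.24, while Ddit4 and Shmt2, with no match in the window, had -0.56 and -0.32.

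Level per length, the log2 of CPM per kb of exon, spread widely over the members. In controls Ddit4 (7.66), Atf4 (7.55) and Atf5 (7.30) were the highest, and the SD of Ddit4 over the controls (0.31) exceeded its gap to Atf4. Slc3a2 (6.55), Nars (6.54), Psat1 (6.45) and Shmt2 (6.43) came next and lay within 1 control SD of their neighbours or close to it. The lowest were Eif2ak3 (2.10), Pycr1 (2.62) and Cars (3.47). Slc3a2 was above its partner Slc7a5 (5.59).

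**Figure D3:**
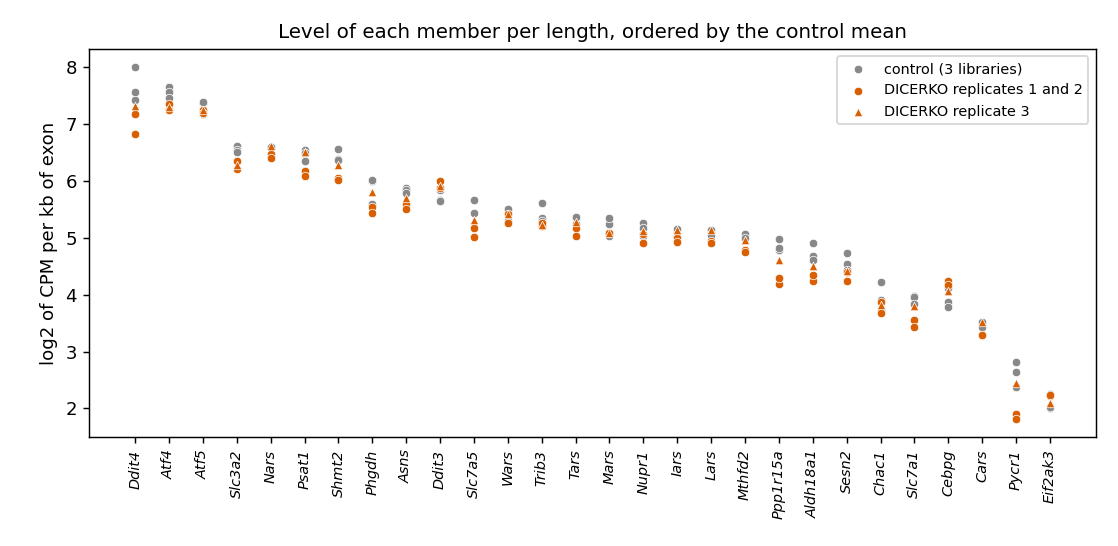
Level of each member as log2 of CPM per kb of exon, in every library, ordered by the control mean; grey points are controls, orange circles DICERKO replicates 1 and 2, and orange triangles DICERKO replicate 3. Ddit4 and Atf4 lead and Eif2ak3 is lowest, and the shifts between groups are small beside the range over genes.

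Related genes outside the member list were followed in 5 companion lists, of which 67 genes were tested. With all libraries 1 was lower and 0 were higher, against 0.288% and 0.149% of all genes tested. At an unadjusted limma p under 0.05 there were 12 of the 67, against 1593 of all 10054 genes tested. Without DICERKO replicate 3, 7 fell and 9 rose, where 7.22% of all genes tested fell and 12.5% rose. Of 18 other ATF4 targets 1 fell, 0 rose and 14 had lower means, with a median of -0.20, equal to that of the members. At an unadjusted limma p under 0.05 there were 5 of the 18, of which 3 were lower and the rest higher. The gene that fell was Atf3, a stress and cyclic AMP response factor, at 6.39, 6.28 and 6.23 log2 CPM in controls and 5.28, 5.33 and 5.68 in DICERKO (difference -0.87, SE 0.12, limma adjusted p = 0.0139). The Atf3 call was lost with the replicate number as a term, without any single control and without DICERKO replicate 2, with an adjusted p of 7.91e-06 to 0.145 over the alternatives. The hormone gene Gdf15, next by p, differed by -0.58 (adjusted p = 0.133), and without DICERKO replicate 3 it fell by 0.74 (adjusted p = 0.000487). In that fit 4 of these targets fell (Atf3, Gdf15, Stc2 and Slc6a9) and 3 rose (Gpt2, Sqstm1 and Jhdm1d). Companion genes other than those with the smallest p were named after their values were seen.

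The lists for the machinery upstream of ATF4, the other synthetases and the other amino acid enzymes had medians of -0.06 to 0.04 with all libraries, against 0.02 over all genes tested. Of 11 tested eIF2 and eIF2B subunits, kinases and regulators 5 had lower means, 0 passed, and the median was 0.01. Impact, an inhibitor of the kinase GCN2, differed by 0.35 (adjusted p = 0.204), and the adaptor gene Nck1 by 0.26 (adjusted p = 0.326). Impact rose by 0.40 without DICERKO replicate 3 (adjusted p = 0.0177), the only gene of this list to pass. Of 7 other cytosolic synthetase and scaffold genes 0 passed and the median was -0.06, with Aimp2, a scaffold of the multi-synthetase complex, at -0.27 (adjusted p = 0.326) and Vars at -0.19 (adjusted p = 0.407). Aimp2 alone of this list passed without DICERKO replicate 3, and fell by 0.40 (adjusted p = 0.0132). Of 13 mitochondrial synthetase genes 0 passed and the median was 0.01, with Lars2 at -0.25 (adjusted p = 0.264) and Iars2 at 0.30 (adjusted p = 0.265). The median was 0.11 without DICERKO replicate 3, and only Iars2 of this list passed, with a rise of 0.40 (adjusted p = 0.00915). Of 18 other genes of serine, folate, proline and glutamine use 0 passed and the median was 0.04. There the mitochondrial folate enzyme gene Mthfd1l differed by -0.34 (adjusted p = 0.229) and the glycine decarboxylase gene Gldc by -0.52 (adjusted p = 0.228). In the fit without DICERKO replicate 3, 4 genes of this list rose (Glul, Gpt, Aldh1l1 and Asl) and 2 fell (Mthfd1l and Aldh1l2). Over all genes tested 12.5% rose and 7.22% fell in that fit. With all libraries, at an unadjusted limma p under 0.05, these 4 lists held 1 of 11, 0 of 7, 3 of 13 and 3 of 18 genes. Over all genes tested 1593 of 10054 were under this p. None of the genes of these 4 lists was called by limma-voom.

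**Figure D4:**
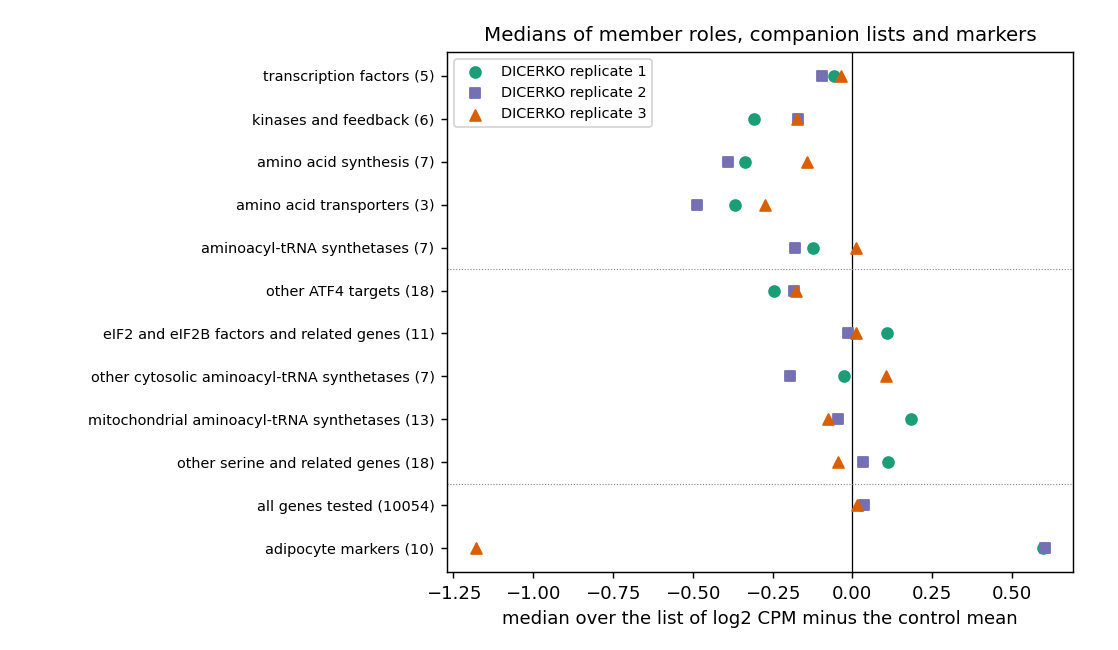
Median over each list of log2 CPM minus the control mean, with 1 symbol for each DICERKO library and the number of tested genes in brackets; dotted lines separate member roles, companion lists, and all genes with the adipocyte markers. Synthesis and transporter genes lie lowest among the roles in replicates 1 and 2, and the adipocyte markers of replicate 3 lie at -1.18.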

How the data were processed

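The authors deposited log2 CPM, with a column for each of the 6 libraries. Per the submitters' processing notes, the tools included HISAT2, featureCounts, Trimmomatic, FastQC and edgeR, with GRCm38 (mm10) as the genome, and the series' design text names TMM scaling. Versions and the use of strand are not given in the sources used here. Each deposited log2 value is that of a whole number of reads plus 0.5, scaled to an implied library size (100% of values whole within 0.01 reads). That size may be TMM-scaled.

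Entrez numbers were matched to symbols in RefSeq's GRCm38.p6 table (13682 of 13734), and 1 member, Mars, by its newer symbol. Genes reaching 1 CPM in 3 or more libraries were kept. Their deposited log2 values were tested in R 4.3.3 by limma-trend (limma 3.58.1), with group as the only term, and p-values were adjusted over all 10054 genes by Benjamini-Hochberg with a threshold of 0.05. The fit was tested on simulated data with changes larger than the member differences and spreads drawn from the controls only. That test therefore covers neither changes as small as those of the members nor the spread of DICERKO replicate 3. Exon lengths are unions of GENCODE M21 exons. Python 3.11.15, numpy 2.4.6, pandas 2.3.3 and matplotlib 3.10.9 were used for other steps.

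Members and lists were chosen with earlier results of these data known. Values in every library are given for members past the threshold with all libraries or without DICERKO replicate 3 and for the 8 with the smallest p. Of each companion list, genes past the threshold and the 2 with the smallest p are named. Atf4 and Ddit3 were added after their values were seen. Alternatives changed the scaling, filter, pseudocount, test, replicate term and libraries.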

Additional observations from a re-analysis of the deposited data

How the results depend on the processing

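The 28 member differences kept their sign under all 13 alternatives, with 25 lower and 3 higher means in each. The members called stayed at 0 except without DICERKO replicate 3. Leaving out 1 library gave 0 to 10 members lower, 12 to 19 members with every DICERKO library below every control, 0 to 1257 genes higher and 1 to 726 lower over all genes tested, and 0 to 9 companion genes higher and 0 to 7 lower. The replicate block gave 0 genes higher, 2 lower and 0 companion genes lower. Dicer1 differed by -0.66 in that block and missed the threshold (adjusted p = 0.119). Without single libraries Dicer1 differed by -0.68 to -0.64, with an adjusted p of 0.000234 to 0.147. Correlations of same-numbered libraries' deviations were 0.20, -0.01 and -0.08, and not every library correlated best with its own number. With 3 libraries in each group these values cannot settle whether the numbers pair the samples. Scaling moved the median of all genes from 0.02 to -0.02. The log2(CPM + 1) values, no filter, 5 CPM as the filter, median centring, quantile normalization and limma-voom changed no member call. The cause of the change without DICERKO replicate 3 was not tested. Each member had 258 reads or more in every library.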

Other observations

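Control replicate 2 was the highest control for 18 of the 28 members, among them all 6 tested kinases and feedback genes. Control replicates 1 and 3 were highest for 7 and 3 members. Over all genes tested, control replicate 2 was the highest control for 3642 of 10054.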
